A study of Mus musculus with 8 samples.

Results

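The mitochondrial ribosomal proteins are the proteins of the ribosome that works inside mitochondria. All of them are encoded in the nucleus. They were taken here as the genes whose symbol starts with Mrpl (large subunit) or Mrps (small subunit) followed by a number and at most 1 letter from a to c. This rule found 77 genes of the 48526 in the count table, and each was matched by its Ensembl identifier. Of the 77, 26 belong to the small subunit and 50 to the large subunit. The remaining one, Mrps36, carries the name but belongs to the oxoglutarate dehydrogenase complex, and it was kept because the rule names it. By place in the ribosome, 46 members are counterparts of a bacterial ribosomal protein, and the other 30 ribosomal members hold places particular to mitochondria. The genes lie on 17 chromosomes.

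The mitochondrial ribosome translates the few proteins encoded by mitochondrial DNA, which are core subunits of the respiratory chain and of ATP synthase. Its ribosomal RNAs come from mitochondrial DNA, whereas its proteins are made in the cytosol, imported and assembled on these RNAs with the help of GTPases, helicases and RNA methyltransferases. Melanotropes are endocrine cells that make and secrete the hormone precursor POMC in bulk, so the energy that mitochondria supply is spent on protein synthesis, processing and secretion.

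Neuro-intermediate lobes of the pituitary from C57B6 mice were collected in pools of 5, and the RNA of each pool gave 1 library, 2 libraries per group and 8 in all. The study's methods describe males of 3 months. WT mice carried no transgene. The other groups carried transgenes under a POMC promoter, which is active in the POMC cells of the lobe: ACreb3l2, a dominant negative form of the transcription factor Creb3l2, AXBP1, the same kind of protein against XBP1, or both (ACreb3l2/AXBP1). In these proteins an acidic stretch replaces the part that touches DNA. More than one mouse line was made for each transgene, and the labels do not say which was used. Nothing in the labels gives the litters or the sequencing runs, so p-values measure the spread between pools, and a batch that followed the groups cannot be told apart from them.

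Libraries held from 28256086 to 37988912 counts, of which the members took between 0.222% and 0.241%. The defining melanotrope markers were present in every library, with WT mean levels of 119303 FPKM for Pomc and 66.0 FPKM for Pax7. FPKM are fragments divided by gene length and by the mapped fragments of each library. Markers of the anterior lobe, endothelium, macrophages, fibroblasts, pituicytes and red blood cells were present too. A dominant negative acts on the protein, so the counts of the targeted genes need not fall. The study built both transgenes from part of the coding sequence of the targeted gene and reported more transgene than endogenous mRNA. Reads of the transgene could thus add to these counts. Creb3l2 had 28682 and 28195 normalized counts in WT and 27212 and 26775 in the libraries labelled ACreb3l2. Xbp1 had 11877 and 13436 in WT and 12448 and 13850 in those labelled AXBP1. Neither gene lay wholly above WT, so these counts do not check the labels, and the reason was not tested. In a bulk sample, fewer cells of a type and less RNA per cell cannot be told apart.

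In WT lobes the members were expressed at moderate levels that spanned a 17.4-fold range. The median WT level was 28.3 FPKM, and 50% of the members lay between 18.2 and 38.8 FPKM. The highest was Mrpl52 with 139.8 FPKM ± 9.59 (SD, n = 2), a large subunit protein without a bacterial counterpart. Mrpl17, which has a bacterial counterpart in the large subunit, followed with 106.3 FPKM ± 6.27 (SD, n = 2). Mrps21, Mrpl30 and Mrps12 came next with 84.8, 76.2 and 75.4 FPKM. Mrps12 is the counterpart of the bacterial protein at the decoding centre. The lowest 5 were Mrpl11, Mrps27, Mrpl23, Mrpl45 and Mrpl1, whose WT means ran down from 10.2 through 9.83, 8.91 and 8.54 to 8.04 FPKM. Small and large subunit genes had near identical median WT levels, 28.1 and 28.3 FPKM.

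Only the coarse order of these levels was resolved by 2 libraries. Of the 76 pairs of neighbours in the order of WT means, 60 overlapped in their single values and 16 did not. Mrpl52 stood apart from Mrpl17, and Mrpl17 from Mrps21. Mrpl52 ranked 1 in each of the 4 groups, while Mrpl17 moved from rank 2 in WT to rank 5 in ACreb3l2/AXBP1. The median shift of a member's rank between WT and a transgenic group was 2 places. Per length, the 82 cytosolic ribosomal protein genes had a far higher median WT level of 412 FPKM, and 88 nuclear genes for the respiratory chain and ATP synthase had 98.1 FPKM. The latter list, called respiratory chain below, was taken by the start of the gene names. It also admits assembly factors named Ndufaf and leaves out the Sdh genes. Mrpl53 was the one member that could not be tested. It had 0 counts in every library, while the FPKM table gave it 34.4 and 33.8 FPKM in WT, and its exons overlap those of another gene on the same strand.

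**Figure D1:**
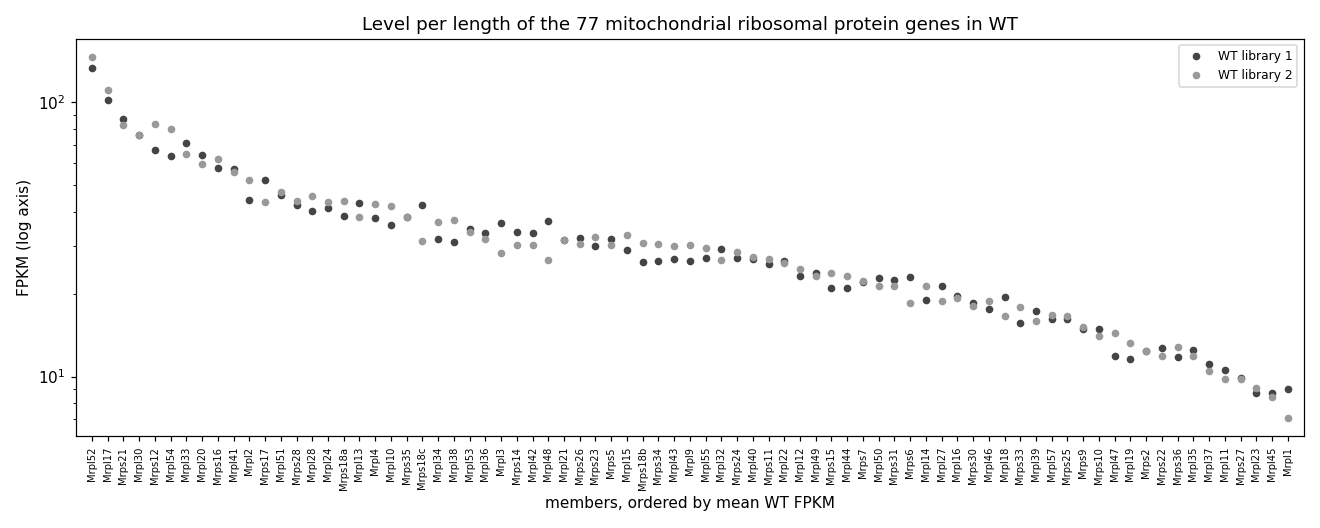
FPKM (log axis) of the 77 members in the 2 WT libraries, ordered by their mean. Mrpl52 and Mrpl17 stand above the rest, at 139.8 and 106.3 FPKM on average, and most neighbours overlap.

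Each transgenic group was set against WT to see how these genes responded when Creb3l2, XBP1 or both were blocked in POMC cells. As a group the members were slightly lower in all 3 comparisons, and the edgeR values of all 76 members tested stayed within 2-fold of WT. Over the 17 other settings and all members, Mrps18b in ACreb3l2/AXBP1 was the one that went past 2-fold, at a log2 change of -1.02 on log2(FPKM + 0.1) and -1.01 without ACreb3l2/AXBP1 replicate 1. Median log2 changes in ACreb3l2, AXBP1 and ACreb3l2/AXBP1 were -0.10, -0.12 and -0.13, where the medians of all 15580 tested genes were 0.01, 0.00 and 0.01. In percent, these medians were -6.57, -8.17 and -8.32. Below WT, in the same order, were 58, 66 and 60 of the 76 members tested. The 3 comparisons share the WT libraries, so these counts are not separate pieces of evidence.

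The spread between libraries sets the scale of these shifts. Relative to the WT mean, the median member stood at -0.03 and 0.03 (log2 CPM) in the WT libraries. It stood at -0.10 and -0.09 in ACreb3l2, at -0.13 and -0.11 in AXBP1, and at -0.07 and -0.18 in ACreb3l2/AXBP1. All 6 transgenic libraries were thus below both WT libraries, and the pair of ACreb3l2/AXBP1 libraries differed by more than the pair of any other group. Both libraries of a group lay below both WT libraries for 39 members in ACreb3l2, against 23.2% of all tested genes, which is 51.3% of the members. The same held for 49 members (64.5%) in AXBP1, against 23.8% of all genes, and for 40 (52.6%) in ACreb3l2/AXBP1, against 28.7%. In the other direction, 6, 2 and 8 members lay wholly above WT, against 22.3%, 22.3% and 29.6% of all genes. Groups of 2 are too small for an exact permutation test of a single gene to reach 0.05, and none was run.

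**Figure D2:**
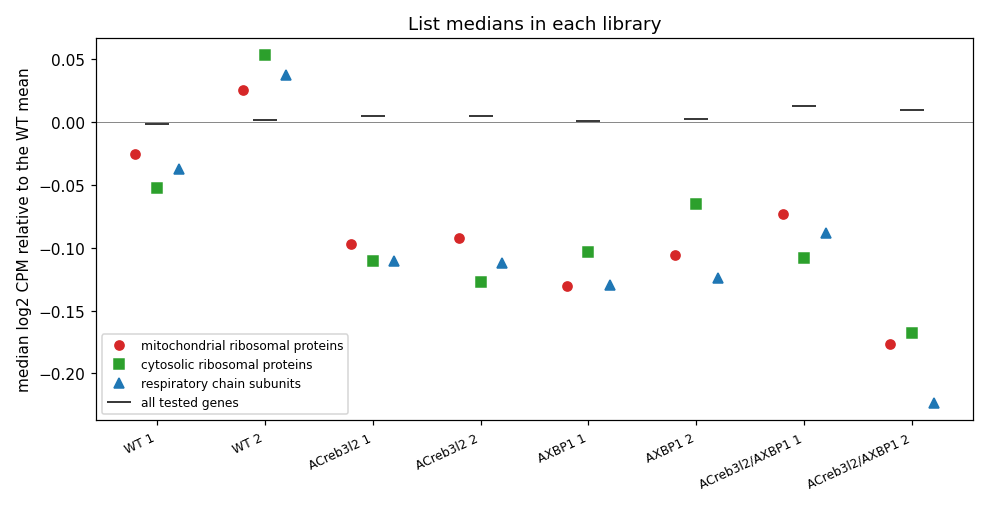
Median log2 CPM of 3 gene lists and of all tested genes in each library, relative to the WT mean (y axis). The mitochondrial ribosomal proteins lie between -0.07 and -0.18 in the 6 transgenic libraries, and the cytosolic ribosomal proteins and respiratory chain subunits lie in a similar range.

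The direction of these medians depends on what the libraries are scaled to. The values above use TMM, which sets the bulk of genes to no change. Scaled to total counts alone, the member median in ACreb3l2/AXBP1 was 0.04 and that of all genes 0.17. In ACreb3l2 and AXBP1 the member median stayed below 0 on that scale, at -0.02 and -0.06. Taken relative to the median of all genes, the member median in ACreb3l2/AXBP1 was -0.14 under either scaling. Over all settings this relative value ran from -0.14 to -0.08 in ACreb3l2, from -0.24 to -0.11 in AXBP1 and from -0.18 to -0.08 in ACreb3l2/AXBP1.

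In the lobes labelled ACreb3l2, 2 members fell and none rose. A gene is said to have fallen or risen, or to be called, when its adjusted p in edgeR was under 0.05. The share of all tested genes called lower was 2.5%, and 2 of 76 is 2.63%, so the members were called about as often as any gene. The share called higher was 0.539%. Both genes that fell, Mrpl17 and Mrps28, are counterparts of bacterial ribosomal proteins, 1 in each subunit. At an unadjusted p under 0.05, 13 members were lower (17.1%, against 9.99% of all genes) and 0 higher, against 6.76% of all genes. The count was 0 without either ACreb3l2 library and without WT replicate 2, 1 without WT replicate 1 or either AXBP1 library, and 3 without either ACreb3l2/AXBP1 library. Over these fits 0% to 3.95% of the members and 0.806% to 3.24% of all genes were called lower.

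Mrpl17 (ENSMUSG00000030879, mm10 chromosome 7, 105803206 to 105811099, minus strand) encodes a protein of the large subunit. Normalized counts were 2215 and 2435 in WT against 1635 and 1637 in ACreb3l2. The AXBP1 pools gave 1892 and 1925 and those with both transgenes 1563 and 1461. The 4 groups did not overlap, with WT highest and ACreb3l2/AXBP1 lowest. Its log2 change was -0.51 in ACreb3l2 (SE 0.0829, edgeR adjusted p = 0.0109). It was -0.28 in AXBP1 (SE 0.0827, edgeR adjusted p = 0.474), which did not pass. In ACreb3l2/AXBP1 the change was -0.62 (SE 0.0831, edgeR adjusted p = 0.00301), a fall to 0.65 of WT. That call held in each of the 17 other settings, while the call in ACreb3l2 held in 13 and was lost without either ACreb3l2 library and without WT replicate 2 (edgeR adjusted p = 0.0741, 0.0848 and 0.0753) and on log2(FPKM + 1) without a filter. No other gene overlaps its exons.

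Mrps28 (ENSMUSG00000040269, chromosome 3, 8802146 to 8923918, minus strand) encodes the small subunit relative of a bacterial RNA binding protein. It had 852 and 917 normalized counts in WT and 586 and 588 in ACreb3l2. The AXBP1 libraries held 815 and 804, just under WT, and the ACreb3l2/AXBP1 libraries 741 and 561. The change in ACreb3l2 was -0.59 (log2, SE 0.129, edgeR adjusted p = 0.0407) and was called in 8 of 17 other settings, with adjusted p from 0.000347 to 0.196. Among the settings that lost it were the removal of any WT, ACreb3l2 or AXBP1 library and scaling to total counts only (edgeR adjusted p = 0.0690). In ACreb3l2/AXBP1, where its libraries lay far apart, it was -0.44 and did not pass (edgeR adjusted p = 0.0556), while it passed in 5 of 17 other settings, among them the fit without ACreb3l2/AXBP1 replicate 1 (edgeR adjusted p = 0.0120).

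**Figure D3:**
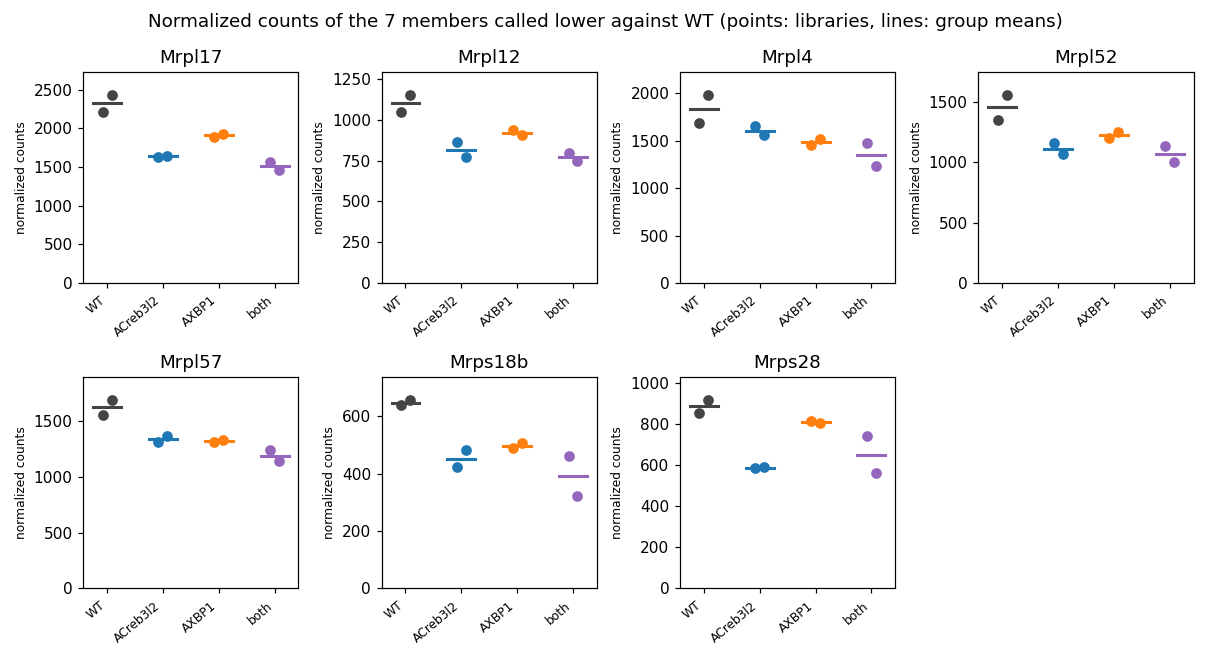
Normalized counts (y axis, from 0) of the 7 members called lower in a comparison with WT, for the 4 groups ("both" is ACreb3l2/AXBP1). Points are libraries and lines are group means. Mrpl17 falls from 2215 and 2435 in WT to 1563 and 1461 in ACreb3l2/AXBP1.

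In the lobes labelled AXBP1, edgeR called 0 members, and 0% of all genes were called in either direction. DESeq2 called 0 members as well, where 0.392% of all genes were called lower. Without the filter on low counts edgeR called 1 member lower, which is 1.32% against 1.53% of all genes. At an unadjusted p under 0.05, 14 members were lower and 0 higher, which is 18.4% of those tested against 5.68% of all genes that were lower at this p and 4.29% that were higher. The 6 members with the smallest p were Mrpl17, Mrpl57, Mrpl36, Mrpl4, Mrps18a and Mrpl51, all of the large subunit despite the name of Mrps18a. Mrpl36 had 980 and 965 normalized counts in WT and 767 and 830 in AXBP1, a log2 difference of -0.29. Mrpl51 had 1742 and 1681 in WT and 1431 and 1521 in AXBP1, a log2 difference of -0.21. In both genes the groups did not overlap, yet their edgeR adjusted p was 0.484 and 0.492. On the FPKM scale the member median in this comparison was larger, at -0.28, with 100% of members lower, and the median of all genes there was -0.15.

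In the lobes labelled ACreb3l2/AXBP1, 6 members fell and none rose. They are 7.89% of the members tested, against 6.99% of all genes called lower, and 3.06% of all genes were called higher. Besides Mrpl17 they were Mrps18b, Mrpl12, Mrpl52, Mrpl57 and Mrpl4. Of the 6, 5 belong to the large subunit, and 3 are counterparts of a bacterial protein by place (Mrpl17, Mrpl12 and Mrpl4). At an unadjusted p under 0.05, 18 members were lower (23.7%, against 16.3% of all genes). The count of 6 was 1 without WT replicate 2, 1 without ACreb3l2/AXBP1 replicate 2 and 14 without ACreb3l2/AXBP1 replicate 1. As shares of the members these are 1.32%, 1.32% and 18.4%, where 1.89%, 1.23% and 8.77% of all genes were called lower in the same fits.

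Mrps18b (ENSMUSG00000024436, chromosome 17, 35910379 to 35916389, minus strand) had the largest fall on the log2 scale among the called members. Mrps18a, Mrps18b and Mrps18c are relatives of 1 bacterial protein that sit at different places of the ribosome, and Mrps18c holds the place of that protein, so only Mrps18c is counted here as its counterpart. Mrps18b had 637 and 657 normalized counts in WT and 460 and 320 in ACreb3l2/AXBP1. With 423 and 481 in ACreb3l2 and 488 and 506 in AXBP1, all 6 transgenic libraries were below both WT libraries. The change in ACreb3l2/AXBP1 was -0.73 on the log2 scale (SE 0.157, edgeR adjusted p = 0.0208), and -0.50 without replicate 2 of that group (edgeR adjusted p = 0.131), while it ran to -1.02 over the other settings, and the call was also lost without WT replicate 2 (edgeR adjusted p = 0.0986). Log2 differences of -0.52 and -0.38 in ACreb3l2 and AXBP1 were not called (edgeR adjusted p = 0.124 and 0.495). In ACreb3l2 it passed in 3 of 17 other settings, without the filter on low counts (edgeR adjusted p = 0.00753) and without ACreb3l2/AXBP1 replicate 1 or 2 (0.0430 and 0.0400). In AXBP1 the difference reached -0.83 on log2(FPKM + 0.1), where it did not pass (limma adjusted p = 0.0828). Exons of Gm16279 overlap it on the other strand, and whether the counting used strand is not stated.

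Neither relative of Mrps18b was called. Mrps18a had 1101 and 1290 normalized counts in WT and 1080 and 929 in ACreb3l2/AXBP1, a log2 difference of -0.25 (edgeR adjusted p = 0.176). Mrps18c had 343 and 214 in WT and 343 and 298 in ACreb3l2/AXBP1, and its WT libraries spanned most of the values of the other groups. Its log2 difference was 0.20 (SE 0.238, edgeR adjusted p = 0.605), and -0.10 without WT replicate 2. The differences between these 3 genes were not tested.

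Mrpl12 (ENSMUSG00000039640, chromosome 11, 120484613 to 120489065, plus strand) encodes the stalk protein of the large subunit, to which translation factors bind, and is also known as a partner of the mitochondrial RNA polymerase. It had 1047 and 1154 normalized counts in WT. ACreb3l2 libraries held 863 and 769, AXBP1 libraries 938 and 904 and ACreb3l2/AXBP1 libraries 797 and 748. The values of each transgenic group lay wholly below WT. The change was -0.51 in ACreb3l2/AXBP1 (SE 0.102, edgeR adjusted p = 0.0162). That call was lost without WT replicate 2 and without ACreb3l2/AXBP1 replicate 2 (edgeR adjusted p = 0.0901 and 0.130). It was -0.43 in ACreb3l2 with an edgeR adjusted p of 0.0542, which passed with DESeq2 (0.0323) and without the filter on low counts (0.0169). The antisense gene Gm16755 overlaps its exons.

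The other genes that fell in ACreb3l2/AXBP1 were Mrpl52, Mrpl57 and Mrpl4, with log2 changes of -0.45, -0.45 and -0.44 (edgeR adjusted p = 0.0294, 0.0161 and 0.0377). Mrpl52 (ENSMUSG00000010406, chromosome 14, 54426909 to 54429756) had 1350 and 1561 normalized counts in WT and 1134 and 999 in ACreb3l2/AXBP1. Mrpl57 (ENSMUSG00000021967, chromosome 14, 57826234 to 57829296) had 1557 and 1694 in WT and 1241 and 1146 in ACreb3l2/AXBP1. Both are proteins of the large subunit that bacteria lack. Mrpl4 (ENSMUSG00000003299, chromosome 9, 21002738 to 21008839), the counterpart of a bacterial protein that lines the exit tunnel, had 1689 and 1988 in WT and 1476 and 1235 in ACreb3l2/AXBP1. In all 3 genes the groups did not overlap. Without WT replicate 2 none of the 3 was called (edgeR adjusted p = 0.161, 0.0900 and 0.203), nor without ACreb3l2/AXBP1 replicate 2 (0.219, 0.131 and 0.268), nor with total counts only (0.0657, 0.0552 and 0.0755). Over the 17 other settings the 3 genes were called in 9, 12 and 7. Leaving out either AXBP1 library ended the calls of Mrpl52 and Mrpl4, and leaving out either ACreb3l2 library that of Mrpl4, with adjusted p from 0.0527 to 0.0713.

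At the other end, 3 members had an unadjusted p under 0.05 with higher values in ACreb3l2/AXBP1, Mrpl1, Mrpl27 and Mrps9. That is 3 of 76, against 13.4% of all genes higher at this p, and the 3 are named because of these values. Their log2 differences were 0.32, 0.29 and 0.29, and none was called (edgeR adjusted p = 0.117, 0.133 and 0.0753). Mrps9 alone passed in another setting, with total counts only (edgeR adjusted p = 0.0313).

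**Figure D4:**
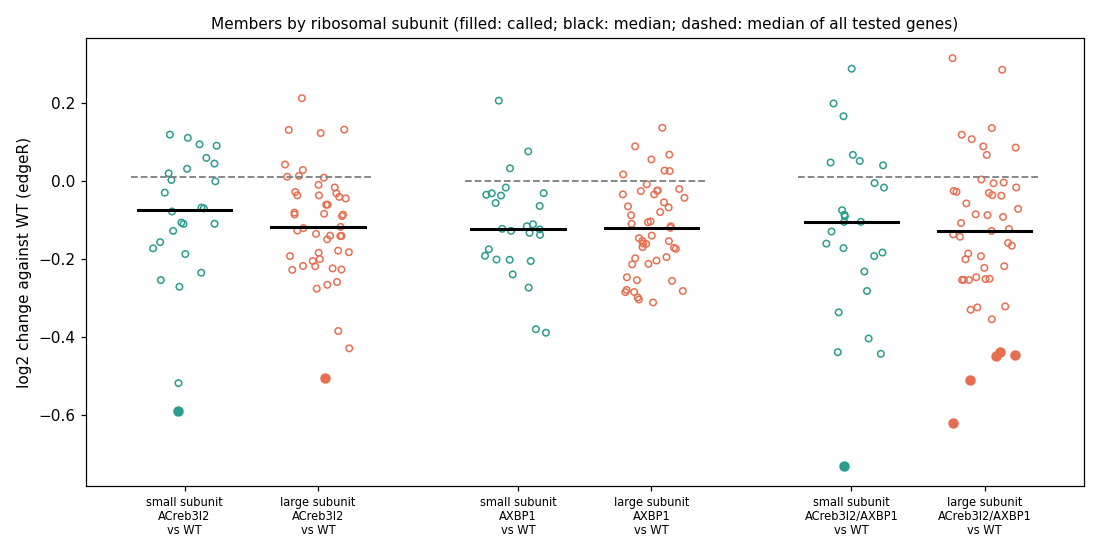
Log2 change of each small and large subunit gene against WT in the 3 comparisons (y axis). Filled points were called (2, 0 and 6), black lines are medians and dashed lines the median of all tested genes. Both subunits lie mostly below the dashed line in each comparison.

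Both subunits had medians below 0 in the comparisons with WT. In ACreb3l2, AXBP1 and ACreb3l2/AXBP1, the 26 small subunit genes had median log2 changes of -0.07, -0.12 and -0.10. Those of the 49 large subunit genes tested were -0.12, -0.12 and -0.13. Lower than WT were 65.4%, 88.5% and 73.1% of the small subunit genes and 81.6%, 85.7% and 81.6% of the large subunit genes, and the differences between the subunits were not tested. The 46 genes with a bacterial counterpart had medians of -0.08, -0.12 and -0.12, and the 29 tested genes that are particular to mitochondria -0.12, -0.12 and -0.12. For 32 members an exon overlaps that of another gene. Without them the member medians were -0.12, -0.14 and -0.16 over the other 45. Mrps36, which is not part of the ribosome, had 223 and 240 normalized counts in WT and 178 and 170 in ACreb3l2. The AXBP1 pools held 199 and 159 and the ACreb3l2/AXBP1 pools 190 and 175, so all 6 transgenic libraries were below WT, with no change called (edgeR adjusted p from 0.181 to 0.497).

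Next, the transgenic groups were compared with each other. No member was called in any of the 3 direct comparisons or in the interaction, by edgeR, DESeq2 or limma, with the exception of 1 between ACreb3l2 and AXBP1 when edgeR was run without the filter on low counts. That one was lower, which is 1.32% of the members against 1.43% of all genes called lower in that fit and 2.47% called in either direction. The shares that follow are for the main fit. Of all genes, 0.719% were called between ACreb3l2 and AXBP1, 0% between ACreb3l2/AXBP1 and ACreb3l2, 0.623% between ACreb3l2/AXBP1 and AXBP1, and 0% in the interaction. At an unadjusted p under 0.05 there were 2, 1, 6 and 0 members, which is 2.63%, 1.32%, 7.89% and 0% of those tested, against 9.49%, 7.14%, 11.1% and 2.48% of all genes. Member medians were 0.03, -0.02 and -0.01 in the direct comparisons, in the same order. Their signs are not settled for the comparisons of ACreb3l2/AXBP1 with ACreb3l2 and AXBP1, where the medians were 0.03 and 0.06 without ACreb3l2/AXBP1 replicate 2, -0.08 and -0.07 without replicate 1, and 0.06 and 0.09 with total counts only. Between ACreb3l2 and AXBP1 the median was 0.01 without AXBP1 replicate 1 and 0.21 on log2(FPKM + 1), where that of all genes was 0.17.

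Mrps28 was lower in ACreb3l2 than in AXBP1 by a log2 difference of -0.46 (SE 0.130, edgeR adjusted p = 0.192), with no overlap between its libraries. It passed only when edgeR was run without the filter on low counts (edgeR adjusted p = 0.0254). Mrpl17 was next with -0.22 (edgeR adjusted p = 0.392), a difference that was 0.08 on log2(FPKM + 1). Between ACreb3l2/AXBP1 and AXBP1, Mrpl17 differed by -0.34 (SE 0.0832, edgeR adjusted p = 0.140) and Mrpl32 by 0.28 (edgeR adjusted p = 0.305). Mrpl32 is a large subunit protein whose processing by a mitochondrial protease is needed for ribosome assembly. Its normalized counts were 732 and 678 for WT, 717 and 677 for ACreb3l2, 613 and 620 for AXBP1 and 768 and 733 for ACreb3l2/AXBP1, so that the AXBP1 libraries alone stood low. Between ACreb3l2/AXBP1 and ACreb3l2 the smallest p belonged to Mrps26 and Mrpl4, with log2 differences of -0.23 and -0.25 (edgeR adjusted p = 0.688 for both).

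The interaction is what remains of the log2 change with both transgenes once the changes seen with each alone are subtracted. Its median over the members was 0.08, and 14 of 76 members (18.4%) had a negative value, against 49.6% of all genes. Cytosolic ribosomal protein genes had a median of 0.06 with 17.9% negative, and respiratory chain genes one of 0.09 with 11.9% negative. The median was 0.03 without ACreb3l2/AXBP1 replicate 1, 0.15 without replicate 2 of that group and 0.19 on log2(FPKM + 1). The 3 changes it is built from share the WT libraries. Mrpl32 (0.30, SE 0.137) and Mrps36 (0.43, SE 0.229) had the smallest p, both with an edgeR adjusted p of 1.00.

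The promoters of some of the called genes are shown because ACreb3l2 and AXBP1 block factors of the bZIP family, which bind DNA elements with an ACGT core. Promoter windows of RefSeq (GRCm38.p6, from 250 bases before to 50 after the start) were found for 68 of the 77 members. The 100 bases upstream of the outermost annotated start are printed 5′ to 3′ on the strand of the gene for Mrpl17, called in both ACreb3l2 and ACreb3l2/AXBP1, for Mrps18b and Mrpl12, which fell in ACreb3l2/AXBP1, and for Mrpl52, the member with the highest level. Capitals mark ACGT and the ETS motif CCGGAAG on either strand.
Mrpl17 (chr7:105811100-105811199, minus strand): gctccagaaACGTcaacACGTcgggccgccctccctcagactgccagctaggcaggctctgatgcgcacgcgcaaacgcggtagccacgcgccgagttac
Mrps18b (chr17:35916441-35916540, minus strand): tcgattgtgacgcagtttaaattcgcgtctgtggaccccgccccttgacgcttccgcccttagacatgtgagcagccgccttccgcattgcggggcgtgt
Mrpl12 (chr11:120484513-120484612, plus strand): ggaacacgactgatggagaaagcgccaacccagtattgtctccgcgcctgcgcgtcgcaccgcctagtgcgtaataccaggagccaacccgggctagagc
Mrpl52 (chr14:54426809-54426908, plus strand): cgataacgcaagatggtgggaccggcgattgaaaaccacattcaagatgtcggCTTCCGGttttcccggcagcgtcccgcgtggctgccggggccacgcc

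Mrpl17 has ACGT at positions -103 and -95 relative to the RefSeq start, and the first of these is part of TGACGT on the opposite strand, one side of a cAMP response element. Another ACGT lies at position 7, outside the printed stretch. The printed stretches of Mrps18b and Mrpl12 hold no ACGT, and neither does that stretch of Mrpl57, which is not printed. Mrps28 and Mrpl4 were among the members without a window. Over both strands, ACGT was found in 26 of the 68 member windows, which is 38.2%, against 39.1% of the windows of tested genes and 31.1% of all windows. TGACGT was in 11.8% of the member windows and 11.6% of those of tested genes (7.64% of all). CCACGT, a part of the endoplasmic reticulum stress element, was in 7.35% against 11.3% (8.32% of all), and the E-box CACGTG, which also holds ACGT, in 7.35% against 9.92% (7.24% of all). Shares for the bZIP letters in member windows were thus near those of other expressed genes or under them. The 25 tested members with an ACGT had median log2 changes of -0.13, -0.12 and -0.18 in ACreb3l2, AXBP1 and ACreb3l2/AXBP1, and the 42 without one -0.08, -0.12 and -0.09. The difference between them was not tested.

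Motifs of factors known for nuclear genes of mitochondria were more frequent in these windows. CCGGAAG, bound by ETS factors such as GABPA, was in 35.3% of the member windows, 16.6% of those of tested genes and 9.12% of all. CGCATGCG, the core of the NRF-1 site, was in 10.3%, 3.69% and 1.91%. These shares describe letters in a window and were not tested. The 7 tested members with CGCATGCG had median log2 changes of -0.22, -0.19 and -0.22 in ACreb3l2, AXBP1 and ACreb3l2/AXBP1. For the 60 without it they were -0.09, -0.12 and -0.10. With CCGGAAG the medians were -0.13, -0.17 and -0.14 in 23 members, and without it -0.09, -0.11 and -0.11 in 44. These differences were not tested either. Another feature of position was shared by many members. For 33 of the 77, or 42.9%, another coding gene on the opposite strand starts within 1000 bases in GENCODE M21, against 10.9% of all 21951 coding genes. Mrpl46 and Mrps11 form such a pair with each other, with starts 412 bases apart. The 10.9% covers coding genes whether or not they were expressed here, and no share among tested genes was computed. The 33 members had median log2 changes of -0.13, -0.12 and -0.11 in ACreb3l2, AXBP1 and ACreb3l2/AXBP1, while for the other 43 tested they were -0.08, -0.13 and -0.13.

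The study lists genes with or without a Creb3l2 peak at their promoter in AtT-20 cells, a mouse line of pituitary corticotropes. The peaks come from chromatin immunoprecipitation of a FLAG-tagged, cleaved (active) Creb3l2 that these cells were made to express. That list, from another experiment, names 37 members with a peak and 25 without, and does not hold 15. Members with a peak had median log2 changes of -0.07, -0.11 and -0.11 in the 3 comparisons, and 1, 0 and 4 of them (2.70%, 0% and 10.8%) were called lower. Members without a peak had medians of -0.11, -0.15 and -0.14, and 0, 0 and 1 of them (0%, 0% and 4%) were called lower, where the shares of all genes were 2.5%, 0% and 6.99%. The 14 tested members not on the list had medians of -0.14, -0.13 and -0.11, and 1, 0 and 1 of them (7.14%, 0% and 7.14%) were called lower. With so few genes called, these shares lie near those of all genes. Mrpl17, Mrpl12, Mrps18b and Mrpl4 are listed with a peak and Mrpl52 without, while Mrps28 and Mrpl57 are not on the list. The difference between these classes was not tested.

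Beyond the Mrp names, the mitochondrial ribosome holds proteins with names of their own. Of 6 such genes, Dap3 fell in ACreb3l2 and in ACreb3l2/AXBP1, which is 16.7% of a short list against 2.5% and 6.99% of all genes. Dap3 is a GTP binding protein of the small subunit, first described for its part in cell death. Its normalized counts were 2821 and 3265 for WT, 2059 and 2085 for ACreb3l2, 2503 and 2403 for AXBP1 and 2050 and 1642 for ACreb3l2/AXBP1. As in Mrpl17, all transgenic libraries lay below WT. With ACreb3l2 alone the log2 change was -0.55 (SE 0.113, edgeR adjusted p = 0.0297), and with both transgenes -0.72 (SE 0.113, edgeR adjusted p = 0.00613). The call with both transgenes held in 17 of 17 other settings. The call with ACreb3l2 alone held in 10, and was lost without WT replicate 2, without either ACreb3l2 library and without either AXBP1 library (edgeR adjusted p from 0.0653 to 0.182). In AXBP1 it was -0.31 and not called (edgeR adjusted p = 0.484). Chchd1, Aurkaip1, Gadd45gip1 and Ict1 had log2 differences from -0.10 to -0.31 over the 3 comparisons and Ptcd3 from -0.01 to 0.11, none of them called.

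Median changes of the genes that load, build or feed the mitochondrial ribosome were nearer 0, while single genes went both ways, and the difference from the members was not tested. Of 14 translation factors, Tsfm, the exchange factor of the elongation factor Tufm, fell in ACreb3l2/AXBP1 (log2 -0.37, edgeR adjusted p = 0.0374). Tufm itself had log2 differences of -0.19, -0.12 and -0.19 and was not called. Of 24 assembly factors, Mrm1, which methylates the large ribosomal RNA, fell in ACreb3l2/AXBP1 (-0.47, edgeR adjusted p = 0.0303). These are 7.14% and 4.17% of the lists, against 6.99% of all genes, and the calls held in 6 and 7 of 17 other settings. That of Tsfm was lost without any of the ACreb3l2, AXBP1 or ACreb3l2/AXBP1 libraries or WT replicate 2, and that of Mrm1 without any WT or AXBP1 library or ACreb3l2/AXBP1 replicate 2 (edgeR adjusted p from 0.0538 to 0.213). None of 18 genes for transcription and upkeep of the mitochondrial genome was called, with Tfam at -0.07, 0.00 and 0.05 and Lrpprc at 0.02, 0.02 and 0.08. Median log2 changes were -0.02, -0.06 and 0.00 for the translation factors, -0.02, -0.04 and -0.03 for the assembly factors and -0.07, -0.07 and -0.02 for the genes of mitochondrial genome expression. The mitochondrial genome itself could not be read, since its 37 genes had 0 counts in every library of the deposited table.

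Respiratory chain and cytosolic ribosomal protein genes moved by about as much as the members. The 84 respiratory chain genes tested had medians of -0.10, -0.14 and -0.16, and 0, 0 and 8 of them were called lower, the last being 9.52%. The 78 cytosolic ribosomal protein genes tested had medians of -0.12, -0.08 and -0.14, and 0, 0 and 4 were called lower, the last being 5.13%. Both shares are near the 6.99% of all genes called lower in ACreb3l2/AXBP1. No gene of either list was called higher. The differences between the lists were not tested.

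**Figure D5:**
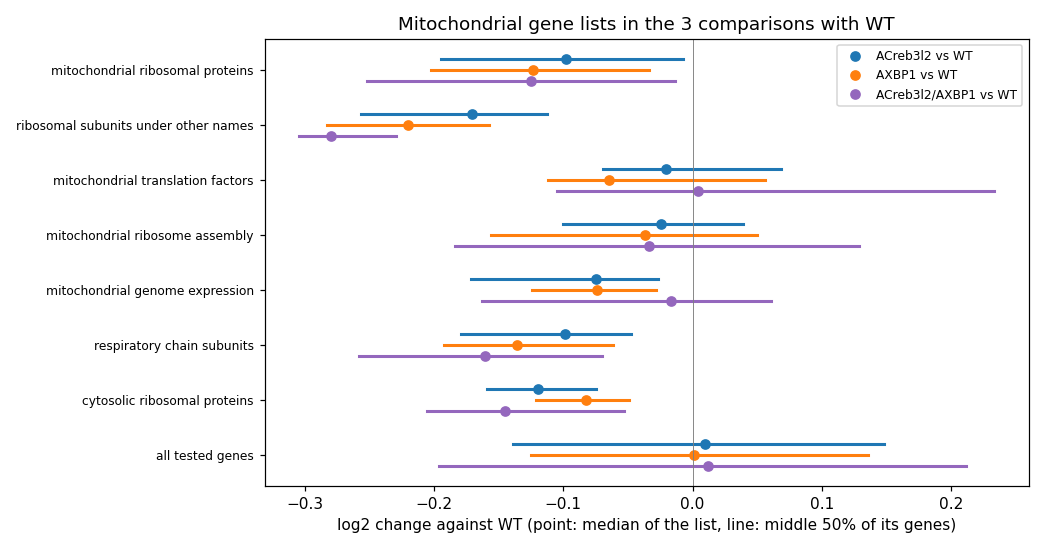
Median log2 change against WT (points) and the middle 50% of genes (lines) for mitochondrial gene lists, cytosolic ribosomal proteins and all tested genes. Members, respiratory chain and cytosolic ribosomal protein genes have medians from -0.08 to -0.16, and the medians of all tested genes are 0.01, 0.00 and 0.01.

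Markers of the cells in the lobe moved along with some of these groups. Values of the 10 melanotrope markers were lower than in WT for 7 with ACreb3l2, for 7 with AXBP1 and for all 10 with both transgenes, where 2 were called. Their summed normalized counts were 3856390 and 5675510 for WT, 4255210 and 3853380 for ACreb3l2, 3542960 and 4125510 for AXBP1 and 3161750 and 2313730 for ACreb3l2/AXBP1. Pomc made up 87.5% to 91.3% of these sums, so they follow Pomc more than the list. In ACreb3l2/AXBP1 the 2 called markers were Tbx19 (log2 -0.88) and Scg2 (-0.57), while Pax7, Chga and Rbfox3 had values of -0.08, -0.07 and -0.04 and were not called. Replicate 2 of ACreb3l2/AXBP1 had both the lowest marker sum and the lowest median of the members. All 8 endothelial markers had higher values in AXBP1 and in ACreb3l2/AXBP1, with sums of 5975 to 7576 and 6459 to 7641 against 4495 to 5571 in WT. All 11 pituicyte markers had higher values in ACreb3l2, with sums of 54407 to 62777 against 45325 to 55257 in WT, which overlap. In AXBP1 8 and in ACreb3l2/AXBP1 10 of the 11 had higher values, with sums of 53819 to 59183 and 54890 to 64692. All 5 erythroid markers had higher values in ACreb3l2 and lower values in AXBP1 and ACreb3l2/AXBP1, with median log2 differences of 0.45, -0.19 and -0.24 and sums that overlapped WT in each group. Of 8 macrophage markers, 7, 3 and 2 had higher values in ACreb3l2, AXBP1 and ACreb3l2/AXBP1, and their sums overlapped WT as well. All 8 fibroblast and pericyte markers had higher values in AXBP1 and 7 of 8 in ACreb3l2/AXBP1, with sums of 33861 to 39175 and 33837 to 39608 against 25904 to 33732 in WT. Of all these non-melanotrope markers, 1 was called, a pituicyte marker that was higher in ACreb3l2/AXBP1. Anterior lobe markers summed to 80514 and 84502 in AXBP1, 125544 and 164823 in ACreb3l2 and 106878 and 207254 in ACreb3l2/AXBP1, against 155872 and 231123 in WT, with 61.8% to 84.7% of each sum from Gh. Of these 9 markers, 4, 7 and 4 were lower in ACreb3l2, AXBP1 and ACreb3l2/AXBP1, and none was called. They moved in different directions, with Gh at -1.46 and Gnrhr at 0.49 (log2) in AXBP1, and Fshb at 1.06 in ACreb3l2. The part of these shifts in the members' values was not tested.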

How the data were processed

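Per the labels, RNA of the pooled lobes was depleted of ribosomal RNA and sequenced as paired 50 base reads, whereas the study's methods name a stranded mRNA (poly(A)) kit. The authors trimmed the reads, aligned them to mm10, counted them per Ensembl gene with HTSeq and deposited raw counts. The annotation release and whether the counting used strand are not given in the sources used here. The deposited FPKM table was made by the authors, who list cufflinks among their software, and served for levels and for gene symbols.

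Genes with a mean normalized count above 20 (15580 genes, 76 members) were tested with edgeR 4.0.16 (R 4.3.3, TMM, robust quasi-likelihood test), with a mean per group over all 8 libraries and Benjamini-Hochberg adjustment over all tested genes at 0.05. TMM factors ran from 0.913 to 1.10, and the biological coefficient of variation was 0.107. Normalized counts are counts scaled by TMM to the mean depth. Alternatives used RLE factors, total counts, no filter, DESeq2 1.42.0, limma 3.58.1 on log2(FPKM + 1) or log2(FPKM + 0.1) of genes with a mean FPKM of 1 or more, and each library left out. Replicate numbers did not pair the libraries, since libraries of the same number correlated in their deviations at -0.20 to 0.09. Members and lists were chosen with earlier results of these data known. Named are the called members (or the 6 of smallest p), the 5 highest and lowest, the 2 of smallest p in each direct comparison, Mrps18a to Mrps18c, Mrpl12 and Mrps36, with exceptions marked. Coordinates are those of GENCODE M21. The authors' own comparisons were not used.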

Additional observations from a re-analysis of the deposited data

How the results depend on the processing

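Of 695 values recomputed for the log2 changes of named genes, 607 kept their direction and their side of the threshold. Values of opposite sign, none of them called, were found for Mrps18c in ACreb3l2/AXBP1 without WT replicate 2 (-0.10, with a range from -0.10 to 0.58 as 1 library was left out) and for Mrpl17 between ACreb3l2 and AXBP1 on log2(FPKM + 1), with and without a filter, and log2(FPKM + 0.1) (0.079, 0.079 and 0.080). Relative to all genes, the member median was below 0 in all 18 settings of each comparison with WT. The number of members called was less stable. In ACreb3l2 it was 1 with total counts only, 5 without the filter on low counts, 0 on log2(FPKM + 1) without a filter, 3 with DESeq2, 1 with the replicate block and 0 to 3 with 1 library left out. In AXBP1 it was 1 without the filter. In ACreb3l2/AXBP1 it was 12 without the filter, 12 and 13 on log2(FPKM + 1) and log2(FPKM + 0.1), 1 on log2(FPKM + 1) without a filter, 2 when only the groups compared were fitted, 9 with DESeq2, 4 with the replicate block and 1 to 14 with 1 library left out. Between ACreb3l2 and AXBP1 it was 1 without the filter. The share of all genes called moved too. In ACreb3l2/AXBP1, 15.8% of members against 6.67% of all genes were called lower without the filter. These shares were 15.6% against 6.697% on log2(FPKM + 1) and 16.9% against 7.003% on log2(FPKM + 0.1). On log2(FPKM + 1) without a filter they were 1.30% against 1.10%, and with DESeq2 11.8% against 8.99%. When only the groups compared were fitted they were 2.63% against 3.31%, and with the replicate block 5.26% against 5.22%. In ACreb3l2 the shares were 6.58% against 3.25% without the filter, 3.95% against 3.76% with DESeq2 and 1.32% against 1.56% with total counts only. They were 1.32% against 1.76% with the replicate block and 0% against 0.371% on log2(FPKM + 1) without a filter. Without the filter on low counts they were 1.32% against 1.53% in AXBP1 and 1.32% against 1.43% between ACreb3l2 and AXBP1. The causes were not tested.

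Total counts only gave member medians of -0.024 in ACreb3l2, -0.064 in AXBP1, 0.035 in ACreb3l2/AXBP1, 0.060 for ACreb3l2/AXBP1 against ACreb3l2 and 0.089 against AXBP1. On log2(FPKM + 1), with and without a filter, the medians were -0.28 in AXBP1, -0.18 in ACreb3l2/AXBP1, 0.21 for ACreb3l2 against AXBP1, -0.075 and 0.11 for ACreb3l2/AXBP1 against ACreb3l2 and AXBP1, and 0.19 for the interaction. On log2(FPKM + 0.1) they were -0.29, -0.19, 0.22, -0.077, 0.11 and 0.20 in that order. With 1 library left out, the medians ran from -0.13 to -0.069 in ACreb3l2, from -0.16 to -0.11 in AXBP1, from -0.18 to -0.081 in ACreb3l2/AXBP1, from 0.013 to 0.035 for ACreb3l2 against AXBP1, from -0.085 to 0.028 and from -0.067 to 0.064 for ACreb3l2/AXBP1 against ACreb3l2 and AXBP1, and from 0.035 to 0.15 for the interaction. Where this left a group with 1 library, that library was assumed to vary like the others. The replicate block moved no member median by more than 0.01. It ended the calls of Mrps28 and Dap3 in ACreb3l2 (edgeR adjusted p = 0.0631 and 0.0544) and of Mrpl4, Mrpl52 and Tsfm in ACreb3l2/AXBP1 (edgeR adjusted p = 0.0610, 0.0510 and 0.0640), and no other call of a named gene. A fit of only the groups compared cannot be made for the interaction. With 2 libraries a group, log2 changes have standard errors near 0.1, so that a shift of the size of the member medians was not detectable for a single gene.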
